A study of Homo sapiens with 6 samples.

Results

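Genes of the Notch pathway are described here in T47D cells, an established line of human luminal A breast cancer, after knockdown of the ETS factor ELF5. The 10 genes were taken by exact symbol from the deposited table of 26364 genes, and all 10 were found: the receptors NOTCH1, NOTCH2 and NOTCH3, the ligands JAG1, JAG2 and DLL1, the glycosyltransferase LFNG, and the target genes HES1, HEY1 and HEY2. Every library came from T47D cells transfected with an siRNA, a non-targeting control in 3 libraries (siNC) and one against ELF5 in 3 libraries (siELF5), with RNA taken 48 h later. Each group received 1 siRNA, and the labels list the control and the ELF5 siRNA as different Ambion products, so each difference below compares both product and target. Nothing in the labels says that replicates were separate cultures, and p-values then cover only how these libraries vary, possibly for technical reasons.

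Notch signalling passes between touching cells. A Jagged or Delta ligand on one cell binds a Notch receptor on its neighbour, ADAM proteases and gamma-secretase cut the receptor, and the freed intracellular part enters the nucleus, where it joins the DNA-binding protein RBPJ and the Mastermind coactivators. HES and HEY genes, which encode repressors of the bHLH type, are classical targets. Fringe enzymes such as LFNG add sugars to the receptor and change which ligand it answers. In the mammary gland Notch activity is tied to the choice between luminal and basal fates, and ELF5, which drives the alveolar fate of luminal progenitors, has been linked to Notch signalling there.

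The promoters of HES1 and HEY2 are shown as the targets with more than 1 match to the letters of the RBPJ motif, and that of JAG2 for its high content of G and C. Sequences are RefSeq windows on GRCh38.p14, from 250 bases before to 50 bases after the start, printed 5′ to 3′ on the gene's strand, with capitals marking the core motif of RBPJ, TGGGAA or its reverse complement TTCCCA. HES1 lies on the plus strand at chr3:194135898-194136197, HEY2 on the plus strand at chr6:125749382-125749681 and JAG2 on the minus strand at chr14:105168727-105169026.
HES1: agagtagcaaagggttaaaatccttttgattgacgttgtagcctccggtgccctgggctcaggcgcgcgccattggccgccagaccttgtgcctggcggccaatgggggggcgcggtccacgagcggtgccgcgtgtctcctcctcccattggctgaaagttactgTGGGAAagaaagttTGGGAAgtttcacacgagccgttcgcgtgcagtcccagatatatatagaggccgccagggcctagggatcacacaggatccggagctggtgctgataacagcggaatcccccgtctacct
HEY2: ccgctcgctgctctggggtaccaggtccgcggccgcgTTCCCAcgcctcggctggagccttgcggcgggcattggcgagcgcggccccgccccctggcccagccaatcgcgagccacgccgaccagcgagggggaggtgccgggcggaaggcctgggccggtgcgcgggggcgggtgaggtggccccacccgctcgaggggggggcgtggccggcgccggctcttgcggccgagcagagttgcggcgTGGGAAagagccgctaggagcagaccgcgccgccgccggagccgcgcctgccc
JAG2: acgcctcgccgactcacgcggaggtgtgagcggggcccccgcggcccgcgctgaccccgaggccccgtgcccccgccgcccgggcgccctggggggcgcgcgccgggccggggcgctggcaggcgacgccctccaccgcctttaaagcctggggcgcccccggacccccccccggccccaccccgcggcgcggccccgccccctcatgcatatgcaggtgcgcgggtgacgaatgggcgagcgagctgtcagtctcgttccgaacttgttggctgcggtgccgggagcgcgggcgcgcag

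HES1 held the RBPJ core at 84 and 70 bases before the start, and HEY2 held it at 213 and 3 bases before the start. Of all 35116 promoter windows of this length, 24.0% held the core on either strand and 3.80% held it at least 2 times. The longer form GTGGGAA, which contains the core, occurred in 6.25% of windows, once in HES1 and 2 times in HEY2. Promoter entries were found for 8 of the 10 members, all but DLL1 and HEY1, and LFNG, with 2 entries, was the only other member with an RBPJ core. An ETS core with its flanks, AGGAAG or CTTCCT, was found in NOTCH2 and LFNG, against 33.6% of all windows. GC content was 59% in the HES1 window, 79% in that of HEY2 and 79.7% in that of JAG2, and the last was above 97.1% of all windows. A match is a run of letters and says nothing of binding in these cells.

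Values below are normalised read counts, that is, reads per gene divided by the authors' size factor for the library. The libraries held 66.8 M to 83.7 M assigned reads. ELF5 itself stood at 13225, 13148 and 12910 in siNC replicates 1, 2 and 3 and at 3678, 3725 and 3638 in siELF5. The log2 fold change was -1.83 (SE 0.033, limma adjusted p = 3.26e-12), in keeping with all 6 labels. All 8 luminal markers passed the minimum mean, with a sum of 716353 to 763720 in siNC and 663544 to 685736 in siELF5. Of the defining markers of other cells, the basal keratins KRT5 and KRT14 and the blood gene PTPRC were at 16.4 or less in every library. Among 5 fibroblast genes only COL1A1 passed the minimum mean, and the summed list ran from 4043 to 5205 in siNC and 3237 to 3777 in siELF5. The 5 endothelial genes summed to 30.4 to 41.5 in siNC and 13.7 to 14.5 in siELF5. The part of these lists in the results was not tested.

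After ELF5 knockdown 6 of the 10 members rose, 1 fell and 3 missed the threshold (limma, adjusted p under 0.05 by Benjamini-Hochberg over the 16032 genes whose mean reached 10). DLL1, JAG2, NOTCH1, LFNG, HEY2 and NOTCH3 rose, NOTCH2 fell, and JAG1, HES1 and HEY1 did not pass. Over all tested genes 23.8% rose and 23.3% fell, 47.1% in all. The median log2 fold change was 0.44 over the 10 members and 0.00 over all tested genes. The groups did not overlap for 7 of the 10, against 55.9% of tested genes. In bulk RNA a change in the share of cells that use a gene and a change in RNA per cell cannot be told apart.

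**Figure D1:**
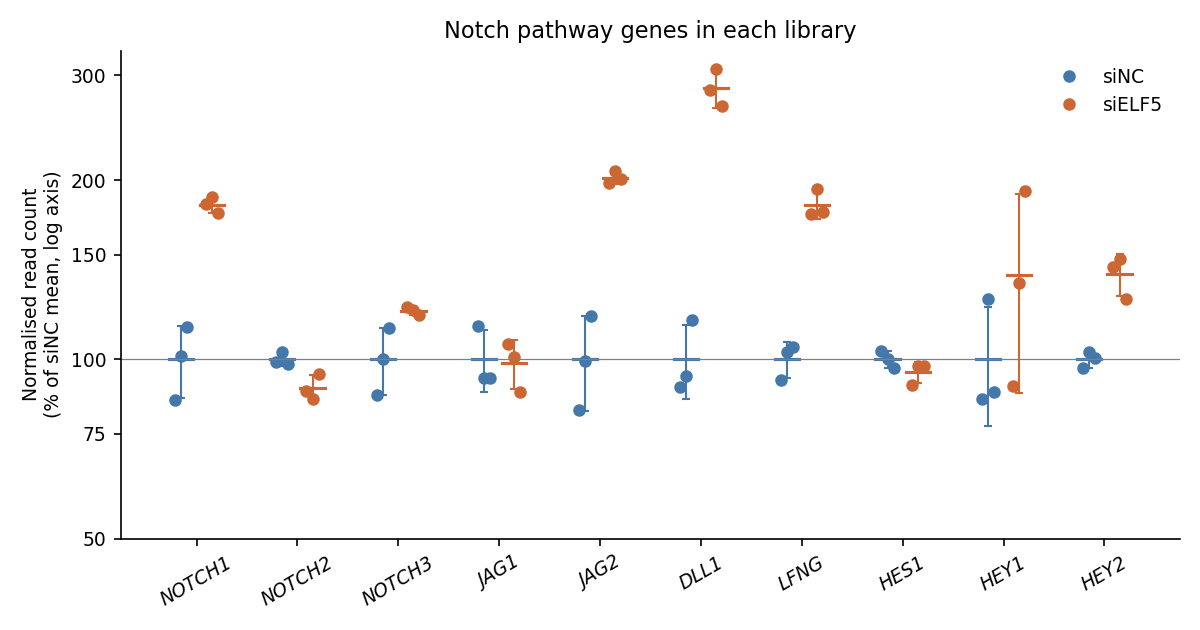
Normalised read count of each of the 10 genes in each library as a percentage of its siNC mean (vertical log axis), siNC in blue and siELF5 in orange; points are libraries, short lines means and bars SD (n = 3). DLL1 stands highest, at 286% of its siNC mean, JAG2, NOTCH1 and LFNG lie near 180% to 200%, NOTCH3 is at 121%, and the groups overlap for JAG1, HES1 and HEY1.

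Before single genes are described, one feature of the libraries bears on 4 of them. Transcripts with very high GC content were higher in siELF5 as a class, and they also differed among the control libraries. Tested genes with a known transcript were split into 10 classes by the GC content of their longest GENCODE 29 transcript. In the highest class, 61.7% to 76.8% GC, 62.2% of 1493 genes rose, 3.48% fell and the median was 0.42 (log2). In the fifth class, 45.9% to 48.6% GC, 17.4% rose and 29.2% fell. A GC score for each library, the median deviation of the highest class minus that of the fifth, was -0.39, -0.22 and -0.07 (log2) in siNC replicates 1, 2 and 3 and 0.22, 0.28 and 0.22 in siELF5. Every siELF5 score exceeds every siNC score, so an effect of the knockdown on GC-rich genes and a bias between libraries cannot be told apart.

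NOTCH1 (62.9% GC), NOTCH3 (63.1%), JAG2 (64.0%) and LFNG (62.7%) fall in the highest class. DLL1 (58.3%) lies in the ninth, where 35.3% of genes rose, 14.5% fell and the median was 0.11. NOTCH2 (49.4%), JAG1 (49.6%) and HES1 (49.9%) lie in the sixth class, where 19.4% rose, 27.9% fell and the median was -0.04, and HEY1 (47.3%) and HEY2 (47.6%) in the fifth. Each member was therefore fitted 3 more times. A loess correction removed each library's trend on GC content, centring removed the median of each of the 10 classes, and another fit took each library's GC score as covariate. The correction and the centring take away whatever GC-rich genes share, an effect of the siRNA included. The covariate overlaps with the groups and widens the median SE over tested genes from 0.063 to 0.151.

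**Figure D2:**
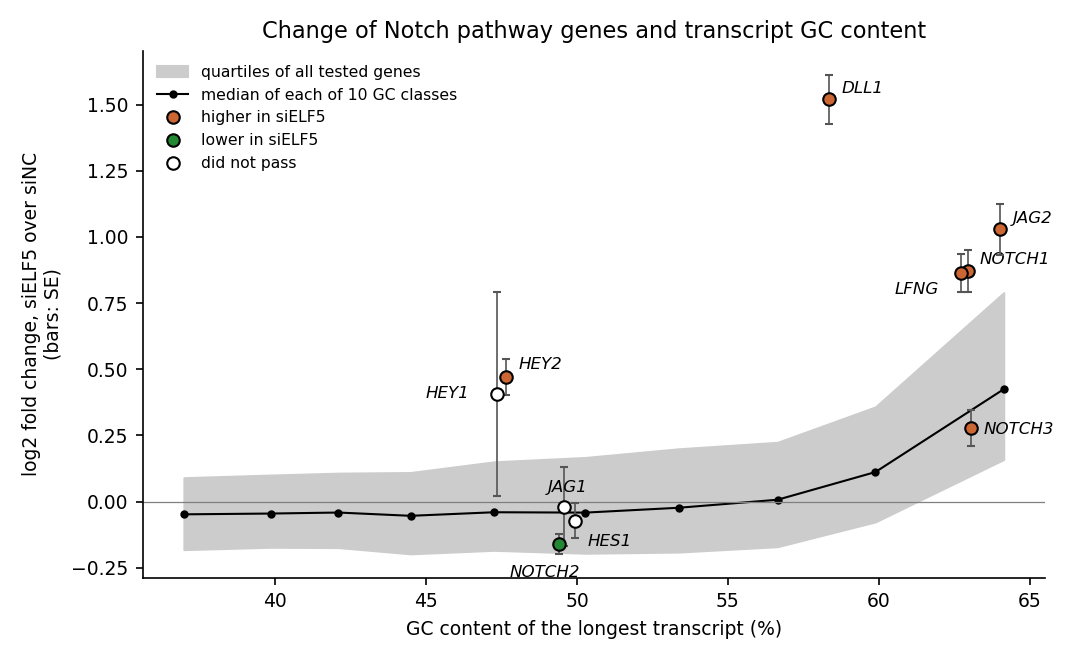
Log2 fold change (vertical, bars SE) against GC content of the longest transcript (horizontal, %) for the 10 genes, over the median (line) and quartiles (grey) of all tested genes in 10 GC classes, with orange for higher, green for lower and white for not passed. The class median turns upward to 0.42 at the GC-rich end; JAG2, NOTCH1 and LFNG lie above the grey band there and NOTCH3 lies inside it, while DLL1 and HEY2 lie above the band of their own classes.

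The receptors moved in different directions. NOTCH1, the receptor most often studied in development and leukaemia, stood at 1511, 1787 and 1999 in siNC replicates 1, 2 and 3 and at 3224, 3308 and 3109 in siELF5. The lowest siELF5 library was 1.56-fold above the highest siNC library. Its log2 fold change was 0.87 (SE 0.080, limma adjusted p = 2.55e-06), which exceeded its class median by 0.45. NOTCH1 also rose after the loess correction, by 0.60 (SE 0.049, limma adjusted p = 9.69e-08), and after class centring, by 0.45. NOTCH1 rose by less, 0.33 (SE 0.041, limma adjusted p = 6.29e-06), when the loess correction used GC content averaged over all its transcripts. With the GC score as a covariate it was at 0.29 (SE 0.117, limma adjusted p = 0.164) and did not pass. The siNC libraries alone spanned 1.32-fold, and the one with the lowest GC score had the lowest NOTCH1 value.

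NOTCH2, the most abundant of the 10 genes, stood at 21541, 22386 and 21441 in siNC and at 19249, 18698 and 20577 in siELF5. All siELF5 libraries were below all siNC libraries, but the change was small, with siELF5 at 89.5% of the siNC mean, or -0.16 on the log2 scale (SE 0.037, limma adjusted p = 0.00333). After the loess correction NOTCH2 fell by 0.13 (SE 0.031, limma adjusted p = 0.00239). The GC score fit gave -0.13 (SE 0.093, limma adjusted p = 0.487). NOTCH2NL, a partial copy of NOTCH2 whose reads may be shared with it, stood at 7699, 7913 and 7416 in siNC and at 5982, 5697 and 6696 in siELF5. It fell by 0.33 on the log2 scale (SE 0.053, limma adjusted p = 0.000245), so how much of each fall belongs to which gene is uncertain. NOTCH2NL is not a member and was named after its values were seen.

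NOTCH3, a receptor with known activity in luminal breast cells, stood at 8921, 10258 and 11541 in siNC and at 12516, 12371 and 12151 in siELF5. The siELF5 libraries differed by only 1.03-fold among themselves, and the lowest was 1.05-fold above the highest siNC library. The log2 fold change was 0.28 (SE 0.068, limma adjusted p = 0.00454), which is 0.15 below the median of its GC class. Leaving out siNC replicate 1, the library with the lowest GC score, brought it to 0.18. After the loess correction the level was 10708, 11168 and 11739 in siNC and 11337, 11090 and 10967 in siELF5. The groups then overlapped, and the log2 fold change was -0.0086 (SE 0.033, limma adjusted p = 0.857). Class centring gave a fall of 0.15 (SE 0.029, limma adjusted p = 0.000801), and the GC score fit gave -0.24 (SE 0.084, limma adjusted p = 0.0941). The direction for NOTCH3 thus depended on the adjustment, and with GC content averaged over all its transcripts the corrected value was 0.15 (limma adjusted p = 0.00904).

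Of the ligands, DLL1 changed most. DLL1, a Delta ligand of Notch receptors, stood at 582, 608 and 754 in siNC and at 1837, 1995 and 1723 in siELF5. The lowest siELF5 library was 2.29-fold above the highest siNC library. The log2 fold change was 1.52 (SE 0.093, limma adjusted p = 7.39e-08), with a 95% interval of 1.32 to 1.72, and the mean was 2.86-fold higher. DLL1 was the one member that passed under every setting run, with 1.47 after the loess correction, 1.41 after class centring and 0.96 (SE 0.174, limma adjusted p = 0.00173) in the GC score fit, which is the lowest of its 28 alternatives.

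JAG2, a Jagged ligand, stood at 1729, 2094 and 2489 in siNC and at 4161, 4360 and 4220 in siELF5. The siNC libraries spanned 1.44-fold and the siELF5 libraries 1.05-fold, and the groups did not overlap. The log2 fold change was 1.03 (SE 0.095, limma adjusted p = 2.73e-06), 0.60 above its class median. After the loess correction the values were 2157, 2338 and 2564 in siNC and 3666, 3781 and 3741 in siELF5, and JAG2 rose by 0.67 (SE 0.052, limma adjusted p = 6.27e-08). The GC score fit gave 0.28 (SE 0.108, limma adjusted p = 0.140), with a 95% interval of 0.05 to 0.51 before adjustment over genes. In GENCODE 29, 7.33% of the exonic bases of JAG2 are shared with a gene model on the same strand.

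JAG1, the other Jagged ligand, was low and did not differ beyond the spread of its libraries. It stood at 167, 136 and 137 in siNC and at 156, 148 and 129 in siELF5, and the groups overlapped. The log2 fold change was -0.02 (SE 0.150, limma adjusted p = 0.931), with a 95% interval of -0.34 to 0.31, so a change of up to about 1.24-fold upward is within its error.

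LFNG, the fringe enzyme that modifies Notch receptors and alters their response to Jagged and Delta ligands, stood at 654, 731 and 743 in siNC and at 1245, 1371 and 1254 in siELF5. The groups were far apart, with the lowest siELF5 library 1.68-fold above the highest siNC library. On the log2 scale LFNG rose by 0.86 (SE 0.072, limma adjusted p = 1.14e-06). The rise was 0.60 after the loess correction (SE 0.062, limma adjusted p = 1.35e-06) and 0.44 after class centring. In the GC score fit it was at 0.56 (SE 0.171, limma adjusted p = 0.0551) and did not pass.

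**Figure D3:**
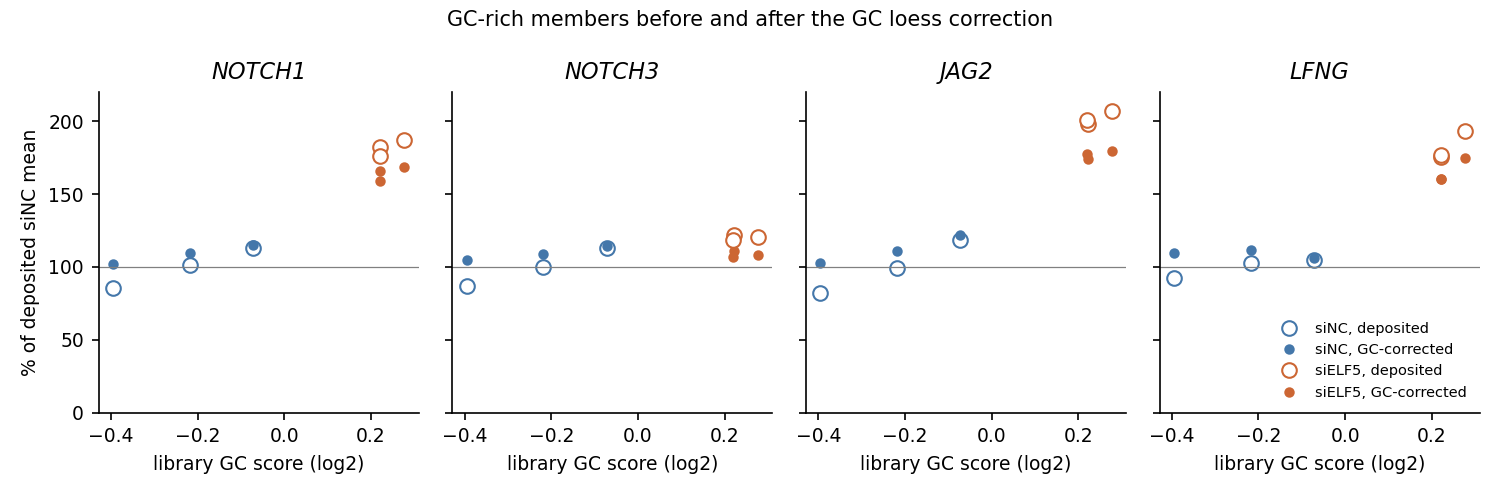
Level of NOTCH1, NOTCH3, JAG2 and LFNG in each library (vertical, % of the deposited siNC mean) against the library GC score (horizontal, log2), siNC in blue and siELF5 in orange, open for deposited values and filled after the loess correction. In each of the 4 panels the siNC library with the lowest score has the lowest deposited value; after correction the groups stay apart for NOTCH1, JAG2 and LFNG and overlap for NOTCH3.

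Of the 3 target genes 1 rose and 2 did not pass. HES1, whose promoter pair of RBPJ cores is printed above, stood at 962, 934 and 903 in siNC and at 845, 909 and 910 in siELF5. The groups overlapped, and the log2 fold change was -0.07 (SE 0.065, limma adjusted p = 0.394). Its 95% interval ran from -0.21 to 0.07, a fold of 0.862 to 1.05, while the interval of HEY2 began at 1.25. HEY2, which encodes a repressor of the Hairy-related family, stood at 1081, 1150 and 1121 in siNC and at 1595, 1650 and 1412 in siELF5. HEY2 rose by 0.47 on the log2 scale (SE 0.066, limma adjusted p = 9.05e-05), with no overlap of the groups.

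The transcript of HEY2, unlike its promoter window, is not GC-rich, and the loess correction left the gene at 0.50 (SE 0.063, limma adjusted p = 8.66e-06). It was 0.51 above the median of its GC class, in which 17.4% of genes rose. In the GC score fit the value was 0.35 (SE 0.167, limma adjusted p = 0.249). HEY1, a close relative of HEY2, was near the lower limit of testing, at 13.8, 20.3 and 14.2 in siNC and at 14.5, 21.6 and 30.8 in siELF5. The libraries of siELF5 spanned 2.13-fold and the groups overlapped. On the log2 scale HEY1 differed by 0.41 (SE 0.384, limma adjusted p = 0.416). Its 95% interval was -0.43 to 1.24, so a change of the size of that in HEY2 was within its error. The difference was 0.15 without siELF5 replicate 3 and 0.67 without siELF5 replicate 1.

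**Figure D4:**
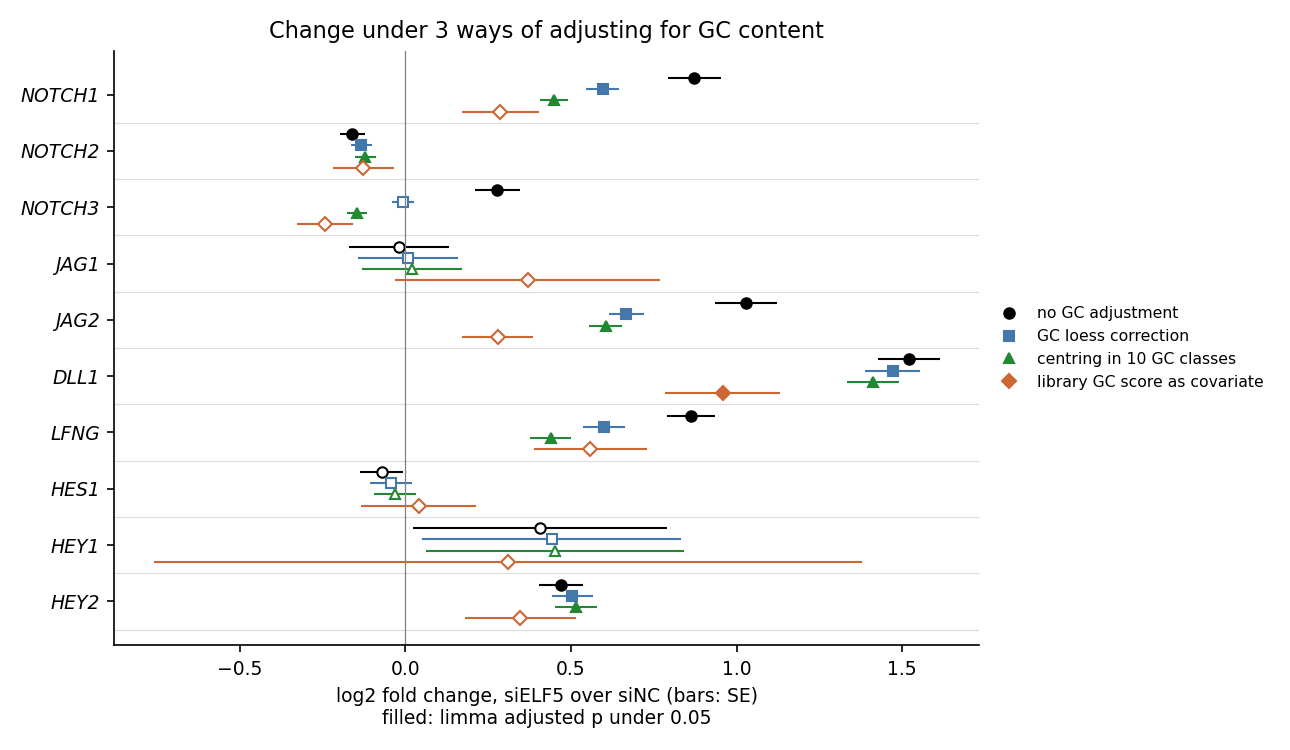
Log2 fold change of each of the 10 genes (horizontal, bars SE) with no GC adjustment (circles), after the loess correction (squares), after centring in 10 GC classes (triangles) and with the GC score covariate (diamonds), filled where the limma adjusted p is under 0.05. DLL1 is filled in all 4 fits, NOTCH3 moves from 0.28 to -0.24 across them, and JAG1, HES1 and HEY1 are open throughout.

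Counted over the members, 5 rose and 1 fell after the loess correction, against 23.6% and 24.3% of tested genes (47.9% in all). Class centring gave 5 and 2, against 24.3% and 24.2%. Fitted with the GC score, 1 member rose and 0 fell by limma, against 3.17% and 3.98% of tested genes (7.15% in all). At an unadjusted p under 0.05 that fit had 4 members higher and 1 lower. The share of all tested genes at that cutoff was not computed, so this count has no background to compare with. On recovered reads without GC adjustment, edgeR called the same numbers as limma, 6 higher and 1 lower, where 23.8% and 23.4% of tested genes were called, and so did DESeq2, where 22.9% and 22.6% were called (45.5% in all). The authors' deposited table called 7 of the 10, with 41.1% of its genes called. It gave log2 fold changes of 1.51 for DLL1 and -0.16 for NOTCH2.

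Levels can be compared between genes only per kilobase of transcript. In siNC the order was NOTCH2 (1913 normalised reads per kilobase), NOTCH3 (1182), HES1 (591), HEY2 (417), JAG2 (361), LFNG (298), DLL1 (204), NOTCH1 (190), JAG1 (24.7) and HEY1 (7.01). HEY2 and JAG2, JAG2 and LFNG, and DLL1 and NOTCH1 overlapped in their siNC ranges. In siELF5 the level per kilobase of JAG2 was 728 and that of DLL1 583, and the range of DLL1 overlapped those of HEY2 (580), HES1 (563) and LFNG (543). NOTCH2 and NOTCH3 remained the highest, at 1713 and 1425, and JAG1 and HEY1 the lowest, at 24.3 and 9.71.

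The makeup of each family shifted with these changes. Of the reads per kilobase of the 3 receptors, NOTCH1 took 5.27%, 5.75% and 6.26% in siNC and 9.95%, 10.4% and 9.43% in siELF5. The share of NOTCH2 went from 58.4% ± 3.25 to 49.2% ± 1.62 and that of NOTCH3 from 35.9% ± 2.75 to 40.9% ± 1.16 (SD, n = 3). Of the 2 Jagged ligands JAG2 took 93.4% ± 1.84 in siNC and 96.8% ± 0.311 in siELF5 (SD, n = 3), a difference of 3.36 percentage points that was 5.16 with the mean transcript length in place of the longest. Among the 3 ligands DLL1 went from 34.7% ± 1.36 to 43.6% ± 1.38, while JAG2 went down from 61.0% ± 2.31 to 54.5% ± 1.45 (SD, n = 3). Among the 3 targets HEY2 went from 41.1% ± 1.31 to 50.3% ± 2.73 (SD, n = 3). For each of these shares the groups did not overlap and the exact permutation p was 0.1, two-sided, the smallest that 3 against 3 libraries allow, so none could reach 0.05. From levels after the loess correction, a setting added after the data were seen, the NOTCH3 share was 38.1% ± 0.982 in siNC and 38.7% ± 1.09 in siELF5 (SD, n = 3), and the groups overlapped. The corrected share of NOTCH2 went from 55.8% to 51.9%, that of NOTCH1 from 6.10% to 9.41%, that of JAG2 among the Jagged ligands from 94.3% to 96.3%, and that of DLL1 from 32.5% to 46.3%, each without overlap. Among the 3 ligands the corrected share of JAG2 went from 63.6% to 51.8%, also without overlap.

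**Figure D5:**
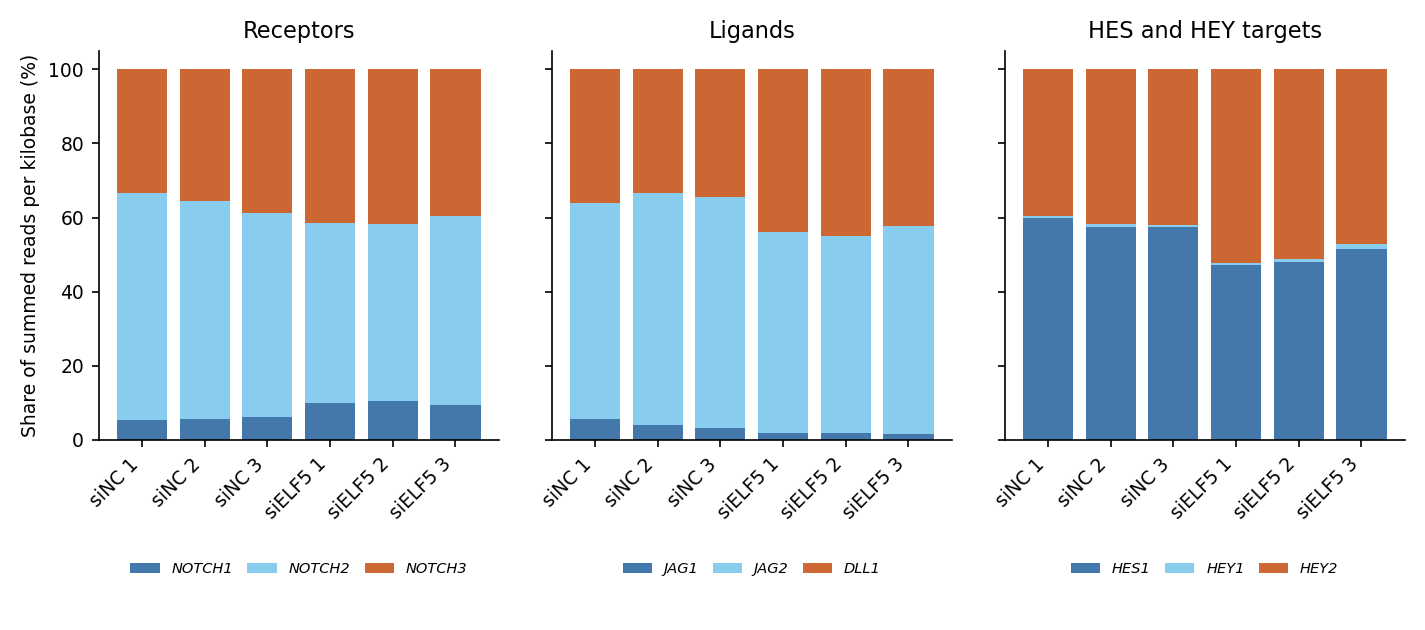
Share of the summed reads per kilobase (vertical, %) that each gene takes within the receptors, the ligands and the HES and HEY targets, for each of the 6 libraries (horizontal). NOTCH1, DLL1 and HEY2 take a larger share in every siELF5 library than in every siNC library, and NOTCH2, JAG2 and HES1 a smaller one.

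Other receptors and ligands were scarce. NOTCH4 and the ligand DLL4 stood between 6.90 and 23.6 and did not pass (log2 fold change 0.46, limma adjusted p = 0.471, and 0.08, limma adjusted p = 0.886). DLL3 had a value above 0 in 2 libraries, at 4.11 or less, and was not tested. Of 8 genes on this list 4 were tested, and 0 rose and 1 fell by limma, beside 23.8% and 23.3% of all tested genes. By edgeR the numbers were the same, beside 23.8% and 23.4%. They were also the same at an unadjusted p under 0.05, for which no share of all tested genes was computed. The one that fell was CNTN1, a contactin described as a Notch ligand, which went from 62.7 to 72.9 in siNC to 22.6 to 34.4 in siELF5 (log2 fold change -1.32, SE 0.255). In the GC score fit it was at -1.41 (limma adjusted p = 0.277).

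Of 8 genes listed as fringe and other O-glycosylation enzymes, not all of which act on Notch, 4 rose and 2 fell. Of all tested genes 23.8% and 23.3% did. In the GC score fit 1 rose and 0 fell by limma, beside 3.17% and 3.98% of all tested genes. MFNG, another fringe gene, was low, at 43.7, 26.7 and 24.3 in siNC and 89.7, 54.0 and 104 in siELF5. Its log2 fold change of 1.35 (SE 0.303) was 1.25 after the loess correction, and MFNG was the one gene of the list to pass in the GC score fit (2.79, limma adjusted p = 0.0186). RFNG, the remaining fringe gene, rose by 0.64 (SE 0.110), and at 66.8% GC its value after the loess correction was 0.03 (limma adjusted p = 0.718). It rose by 0.22 with class centring (limma adjusted p = 0.0142), by 0.24 with the loess correction on GC averaged over transcripts and by 0.30 with GC and length regression, and the GC score fit gave -0.20 (limma adjusted p = 0.444). B3GALT6, a galactosyltransferase of 64.3% GC, rose by 0.62, or 0.23 after the loess correction, and was at 0.36 in the GC score fit (limma adjusted p = 0.259). GXYLT1, a xylosyltransferase that acts on Notch repeats, fell by 0.23 on the log2 scale (SE 0.035). It was at -0.11 in the GC score fit (limma adjusted p = 0.542).

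Of 9 genes for cutting the receptor, 5 rose and 2 fell, beside 23.8% and 23.3% of all tested genes. By limma 1 rose and 0 fell in the GC score fit, beside 3.17% and 3.98%. ADAM10, the protease of the first ligand-induced cut, stood between 10115 and 10518 in siNC and between 12882 and 13070 in siELF5. It rose by 0.32 (SE 0.031, limma adjusted p = 3.95e-06) and passed in all the GC fits, with 0.39 in the GC score fit. FURIN, which cleaves the receptor on its way to the surface, rose by 0.45, or 0.26 after the loess correction, and was at 0.045 in the GC score fit (limma adjusted p = 0.881). NCSTN, the gamma-secretase subunit nicastrin, fell by 0.26 on the log2 scale (SE 0.033). It was at -0.14 in the GC score fit (limma adjusted p = 0.363).

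Of 16 tested genes for trafficking and turnover, 6 rose and 3 fell, beside 23.8% and 23.3% of all tested genes. In the GC score fit 3 rose and 1 fell, beside 3.17% and 3.98%. NEURL1B, a ubiquitin ligase of the Neuralized family that acts on ligands, stood at 5126, 5313 and 5344 in siNC and at 7715, 7885 and 7637 in siELF5. NEURL1B rose by 0.56 on the log2 scale (SE 0.035, limma adjusted p = 8.55e-08). DTX3L, a Deltex-family ubiquitin ligase, rose by 0.61 (SE 0.046). Both also rose in the GC score fit, by 0.46 and 0.56. With GC content averaged over transcripts, however, the loess value of NEURL1B was -0.17 (limma adjusted p = 0.0357), a fall, so its direction depended on which transcripts set its GC content. MIB2, a Mind bomb ligase of 68.4% GC, rose by 1.19, by 0.39 after the loess correction, and was at 0.05 in the GC score fit (limma adjusted p = 0.938).

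RBPJ, the pathway's DNA-binding factor, stood at 5997, 5936 and 6021 in siNC and at 6453, 6664 and 6668 in siELF5, or 0.14 on the log2 scale (SE 0.034, limma adjusted p = 0.00428), with 0.13 in the GC score fit (limma adjusted p = 0.474). Of 21 tested genes for the nuclear complex and its corepressors, 5 rose and 5 fell, near the 23.8% and 23.3% of all tested genes, and the median was 0.00. MAML2, a Mastermind coactivator, fell by 0.95 on the log2 scale (SE 0.138), from 230, 258 and 307 to 143, 134 and 130, and was the one gene of this list to pass in the GC score fit, at -1.51. TLE1, a Groucho corepressor that HES proteins recruit, rose by 0.33 (SE 0.051), and was at 0.22 in the GC score fit (limma adjusted p = 0.333).

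Among other HES, HEY and Notch-responsive genes, 8 of 11 tested rose and 1 fell, beside 23.8% and 23.3% of all tested genes. After the loess correction 5 rose and 2 fell, beside 23.6% and 24.3%, and in the GC score fit 2 rose and 1 fell, beside 3.17% and 3.98%. HES4, a HES-family repressor, stood at 276, 269 and 316 in siNC and at 806, 945 and 588 in siELF5, or 1.42 on the log2 scale (SE 0.144). At 73.9% GC it lay near the end of the GC range, and its value after the loess correction was -0.15 (limma adjusted p = 0.291). With GC averaged over transcripts the loess value was -0.29 (limma adjusted p = 0.0355). HES4 rose by 0.99 with class centring (limma adjusted p = 1.76e-05) and by 0.94 with GC and length regression, and the GC score fit gave 1.01 (limma adjusted p = 0.0762), so its call and direction depended on the adjustment. NRARP, a feedback inhibitor of Notch and a common readout of its activity, had 67.3% GC and differed by 0.08 on the log2 scale (SE 0.060, limma adjusted p = 0.308); after the loess correction it fell by 0.59 (limma adjusted p = 4.2e-07), and the GC score fit gave -0.17 (limma adjusted p = 0.524). HEYL was at 0 in all 6 libraries, and HES5 was at 0 in 5 and at 1.96 in the other.

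SOX9, a factor of luminal progenitors that Notch can induce, rose under each GC fit. It stood at 1985, 1817 and 1889 in siNC and at 4339, 4859 and 4547 in siELF5. The rise was 1.27 on the log2 scale (SE 0.052, limma adjusted p = 2.5e-09), with 1.30 after the loess correction and 1.34 in the GC score fit. ID3, an inhibitor of bHLH factors, rose by 1.13 (SE 0.088), and by 0.57 in the GC score fit. The 1 gene of the list that fell was MYC, a growth regulator and Notch target in several tissues, by 0.31 on the log2 scale (SE 0.043); it was named after its values were seen.

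Of 12 tested mammary lineage genes 7 rose and 4 fell, ELF5 among the latter, beside 23.8% and 23.3% of all tested genes. In the GC score fit 1 rose and 4 fell, beside 3.17% and 3.98% of all tested genes. ESR1, the estrogen receptor, rose by 0.45 (SE 0.028) and KRT18, a luminal keratin, fell by 0.45 on the log2 scale (SE 0.033). Both passed in the GC score fit, at 0.44 and -0.37.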

How the data were processed

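Per the labels' protocols, TRIzol RNA went into TruSeq kit v2 libraries, which do not mark strand. The submitters' processing notes name hg19, STAR 2.6, Subread, featureCounts 1.6.3 and DESeq2 1.22.1, without settings. The deposited per-library values are signal values, gene counts divided by a size factor, and 100% of non-zero values were whole multiples of the column's smallest (tolerance 1e-06), so reads were recovered. Per the file headers, the same table carries the authors' comparison: a log2 fold change, a test score, and a raw and an adjusted p-value for each gene; it served for comparison only.

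limma 3.58.1 (R 4.3.3, intensity trend, two-sided) was run on log2(value + 1) for 16032 genes with a mean of at least 10. Fold changes on this scale understate the change of low genes. edgeR 4.0.16 (quasi-likelihood) and DESeq2 1.42.0 were run on recovered reads, the former calling 7578 genes and the latter 7292. Simulated data were used to test limma alone and with the loess correction, class centring or GC and length regression, and edgeR and DESeq2. The GC score fit, the replicate block and the other settings were not tested on them, and no outcome is printed here. GC content and length came from GENCODE 29 (GRCh38) and were found for 93.1% of tested genes; coordinates are printed only for RefSeq promoter windows on GRCh38.p14. Replicate pairs differed by more than sampling noise (chi-square per degree of freedom 4.26 to 11.4). The members, lists and tests were chosen with earlier results of these data known. All members, 10 further pathway genes chosen by name, ELF5, and up to 3 genes per pathway list with the smallest adjusted p were named; NOTCH2NL and MYC were added after their values were seen. One gene covered by this rule is not reported here.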

Additional observations from a re-analysis of the deposited data

How the results depend on the processing

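Under 28 alternatives (27 for HEY1, which a mean of at least 50 leaves out) DLL1 kept its direction and its call. The calls for NOTCH1, NOTCH2, JAG2, LFNG and HEY2 were lost under 1 alternative each, that with the GC score of the library, where 1 member was higher, 0 were lower and 1147 genes were called in all, against 7559. By limma with class centring 2 members were lower, NOTCH3 being the second. NOTCH3 reversed to -0.0086 with the loess correction (also with the replicate block), -0.15 with class centring and -0.24 with the GC score. It kept its direction but was not called without an intensity trend (log2 fold change 0.28, limma adjusted p = 0.0733). The same held with GC and length regression (log2 fold change 0.0093, limma adjusted p = 0.870). JAG1, never called, reversed to 0.012 with equal column totals, 0.0077 with the loess correction (also with the block), 0.025 with GC averaged over transcripts, 0.020 with class centring and 0.37 with the GC score. HES1 reversed to 0.040 with the GC score. The cause of these changes was not tested.

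Leaving out each library in turn gave 6 higher and 1 lower each time, with 6164 to 7312 genes called, and 5 and 1 with the loess correction added, with 6480 to 7703. NOTCH3 then ran from 0.18 to 0.37, and with the correction from -0.039 (without siNC replicate 1) over -0.024, -0.0099 and -0.0061 to 0.024. JAG1 ran from -0.075 to 0.076, and with the correction from -0.046 to 0.086 and 0.10. With the replicate number as a block 6 members were higher, 1 lower and 7174 genes called, or 5, 1 and 7418 with the loess correction. Same-numbered libraries did not deviate together (correlations 0.01, -0.03 and -0.06), so the number was not taken as a pairing. HEY1 ran from 0.15 to 0.67 over the left-out libraries and was never called. HEY1, NOTCH4 and DLL4 were low in every library, and whether more reads would change their calls was not tested.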
